A study of Caenorhabditis elegans with 12 samples.

Results

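Lysozymes are enzymes that cut the peptidoglycan of bacterial cell walls. Caenorhabditis elegans feeds on bacteria and carries a protist-type family, the lys genes, and an invertebrate-type family, the ilys genes, which serve in digestion and in defence against pathogens. Several of them, lys-7 and lys-8 among them, are known targets of insulin signalling through the transcription factor DAF-16. The values below cover 10 listed lysozyme genes among the 46739 genes of the deposited count table: ilys-2, ilys-3, ilys-5, lys-1, lys-2, lys-4, lys-5, lys-6, lys-7 and lys-8. They were listed by name with earlier results of these data known, and the set was chosen by the values of ilys-5, which was nearly lost in the libraries labelled as triple mutant. For these 10 genes, comparisons that hold those libraries are therefore given as description, without a test.

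RNA was sequenced from whole worms grown at 20 °C and collected 24 h after the L4 larval stage, labelled day 2, in 3 biological replicates of 100 worms for each of 4 genotypes. The libraries labelled spr-4;spr-3;daf-2 are called triple-labelled here. The daf-2 mutant is changed in the insulin/IGF-1 receptor gene. The spr double mutant, labelled spr-4;spr-3, is changed in spr-3 and spr-4, whose zinc-finger products resemble mammalian REST, a repressor. N2 worms served as wild type. The labels name the genes and no alleles, so the nature of each mutation is not known from them.

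Library totals ran from 30837773 to 48894725 counts, and 15764 genes, with 10 of the 10 lysozyme genes among them, passed the filter on low counts. ilys-2 and ilys-3 reached that filter only through the triple-labelled and daf-2 libraries, and lys-5 only through the spr double mutant and N2, the groups where each was high. Among unlisted lysozyme genes the same held for ilys-6, through the triple-labelled and daf-2 libraries, and for lys-10, through N2. Levels are given as CPM, the usual depth-scaled count, corrected for library composition, and for comparisons between genes as RPKM, CPM per kilobase of exon. The spr-3 gene averaged 16.4 ± 1.24 CPM in the triple-labelled libraries, 17.5 ± 1.44 CPM in daf-2, 9.22 ± 0.779 CPM for the spr double mutant and 17.3 ± 1.06 CPM in N2 (SD, n = 3 each), so the triple-labelled libraries do not show the lower spr-3 level of the double mutant. For spr-4 the log2 fold change was -0.21 in the triple-labelled libraries relative to daf-2, and -0.25 for the double mutant relative to N2 (edgeR adjusted p = 0.000565 and 0.000119). daf-2 transcript averaged 86.6 ± 9.68 CPM in the daf-2 mutant and 94.7 ± 1.80 CPM in N2 (SD, n = 3 each; edgeR adjusted p = 0.0979, and 0.0118 without daf-2 replicate 2). Ribosomal RNA took 0.150% to 0.181% of counts in the daf-2 libraries, against 0.0348% to 0.0460% in the other groups, and its part in the comparisons with daf-2 was not tested. In whole animals, fewer cells of a type and less RNA per cell cannot be told apart.

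The genes fell into patterns by the order of the 4 genotypes. lys-1, lys-2, lys-7 and lys-8 had their highest mean in the triple-labelled libraries, then daf-2, then the spr double mutant, and their lowest in N2, an order found in 14.3% of all tested genes. ilys-5, lys-4, lys-5 and lys-6 had the reverse order, with the lowest mean in the triple-labelled libraries, found in 11.4% of all tested genes. In all, 8 of the 10 genes had one order or the other, as did 25.7% of all tested genes, and ilys-2 and ilys-3 had neither. The order includes the triple-labelled libraries with which ilys-5 was chosen, so it is a description.

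**Figure D1:**
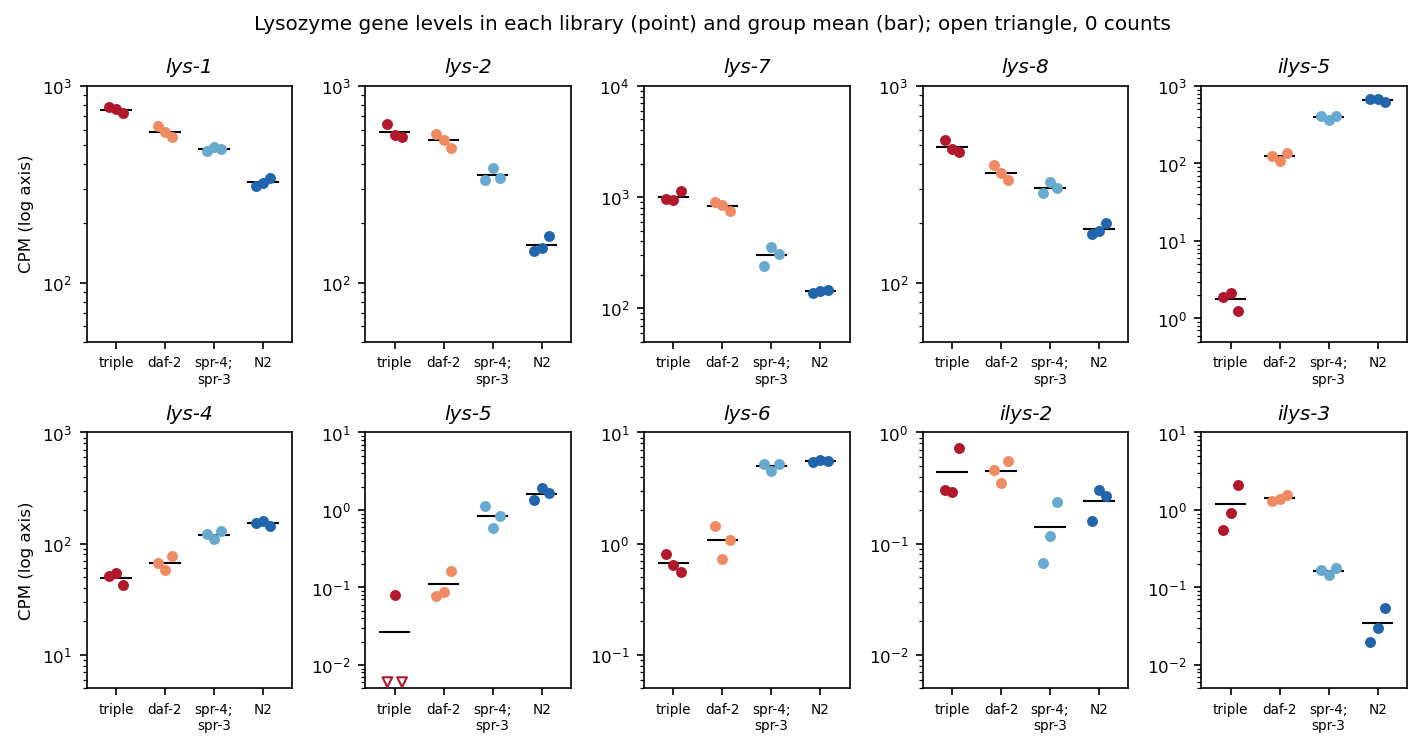
Levels of the 10 lysozyme genes in CPM on log axes, 1 panel per gene, with 1 point per library, a bar at the mean of 3 libraries, and open triangles for libraries with 0 counts; "triple" marks the triple-labelled libraries. ilys-5 has at most 2.13 CPM in the triple-labelled libraries and at least 627 CPM in N2, while lys-7 has at least 936 CPM in the triple-labelled libraries and at most 146 CPM in N2.

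The abundant protist-type genes come first. lys-7 encodes a lysozyme used against several pathogens and is a known DAF-16 target. It had 960, 936 and 1136 CPM in the triple-labelled libraries, 900, 843 and 744 CPM in daf-2, 241, 360 and 310 CPM in the spr double mutant, and 137, 142 and 146 CPM in N2. No library of one genotype overlapped with those of another. lys-7 rose in daf-2 relative to N2 by a log2 fold change of 2.55 ± 0.15 (SE), or 5.84-fold, and in the spr double mutant relative to N2 by 1.09 ± 0.14, or 2.14-fold (edgeR adjusted p = 4.19e-07 and 0.000236). Its log2 difference of triple-labelled minus daf-2 libraries was 0.29 ± 0.14.

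lys-1 and lys-2 lie on chromosome V at 10277904 to 10279056 and 10280307 to 10281474 in WBcel235, with 1250 bases between them and on opposite strands. lys-1, an intestinal lysozyme gene, had 784, 762 and 731 CPM in the triple-labelled libraries, 625, 582 and 552 CPM in daf-2, 469, 491 and 478 CPM in the spr double mutant, and 309, 322 and 340 CPM in N2. None of the genotypes overlapped. lys-1 rose by 0.86 ± 0.050 in daf-2 and by 0.57 ± 0.050 in the spr double mutant, each relative to N2 (log2, edgeR adjusted p = 5.13e-12 and 1.07e-08).

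lys-2 had 639, 565 and 549 CPM in the triple-labelled libraries, 569, 532 and 485 CPM in daf-2, 334, 383 and 339 CPM in the spr double mutant, and 144, 150 and 172 CPM in N2. The triple-labelled and daf-2 libraries overlapped, and the other genotypes did not. Relative to N2, lys-2 rose by 1.77 ± 0.084 in daf-2 and by 1.18 ± 0.083 in the spr double mutant (log2, edgeR adjusted p = 4.93e-10 and 9.49e-08). Its log2 difference of triple-labelled minus daf-2 libraries was 0.14 ± 0.081. Such paralogues may share reads, and the handling of multiply matching reads is not stated.

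lys-8, on chromosome II, is a known target of DAF-16 and of the TGF-beta ligand DBL-1. It had 533, 476 and 462 CPM in the triple-labelled libraries, 395, 359 and 332 CPM in daf-2, 286, 324 and 304 CPM in the spr double mutant, and 176, 183 and 201 CPM in N2. The lowest daf-2 library stood just above the highest spr double mutant library, and no genotypes overlapped. lys-8 rose by 0.96 ± 0.072 in daf-2 and by 0.71 ± 0.072 in the spr double mutant relative to N2 (log2, edgeR adjusted p = 1.58e-08 and 1.28e-06). Its last bases are shared with a gene on the other strand, C17G10.13, and whether the counting used strand is not stated.

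ilys-5 (WBGene00017691) encodes an invertebrate-type lysozyme. It lies on the minus strand of chromosome X at 6533490 to 6536840, 2016594 bases from spr-3, and its annotated exons sum to 1284 bases. It had 1.91, 2.13 and 1.25 CPM in the triple-labelled libraries, 126, 109 and 137 CPM in daf-2, 416, 360 and 412 CPM in the spr double mutant, and 684, 679 and 627 CPM in N2. In counts these are 82, 80 and 51 in the triple-labelled libraries, against 3718 to 4973 in daf-2 and 22555 to 34466 in N2. The 4 genotypes stood far apart, with no overlap between neighbours in the order.

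The triple-labelled level of ilys-5, which led to its choice, was 70.5-fold below daf-2 (log2 fold change -6.14 ± 0.15) and 225-fold below the spr double mutant (-7.82 ± 0.15). The comparisons without triple-labelled libraries were tested, although the daf-2 libraries also entered the choice. For ilys-5, the gene that led to the choice, their p-values are therefore no independent support. ilys-5 fell by 2.42 ± 0.096 in daf-2 and by 0.74 ± 0.091 in the spr double mutant, each relative to N2 (log2, edgeR adjusted p = 9.07e-10 and 4.41e-05). In fold terms, the daf-2 level was 5.35-fold and the spr double mutant level 1.68-fold below N2. The log2 difference was thus -6.14 for triple-labelled minus daf-2 libraries and -0.74 for spr double mutant minus N2. The gap of -5.40 ± 0.18 is given without a test. The triple-labelled libraries did not show the lower spr-3 level of the double mutant, so these differences may not hold the same spr change.

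The 6 nearest tested protein-coding genes around ilys-5 had log2 differences from daf-2 between -0.45 and 0.22 in the triple-labelled libraries. On the left, ceh-60, a homeobox gene, averaged 5.33 ± 0.561 CPM in the triple-labelled libraries and 7.16 ± 0.165 CPM in daf-2, and ets-4, an ETS transcription factor gene, 17.8 ± 1.69 CPM and 24.4 ± 1.97 CPM in these groups (SD, n = 3 each). Both were lower, with log2 fold changes of -0.43 for ceh-60 and -0.45 for ets-4 (edgeR adjusted p = 0.000836 and 0.000324), and the annotated ends of these genes overlap. On the right, svh-2, a growth factor receptor gene, was higher by 0.22 (edgeR adjusted p = 0.00155). ttr-35, dop-3 and fbxl-4 had log2 fold changes of -0.10, 0.12 and 0.10 that did not pass (edgeR adjusted p = 0.257, 0.568 and 0.339). In this comparison 47% of all tested genes passed, 26.1% higher and 20.9% lower.

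**Figure D2:**
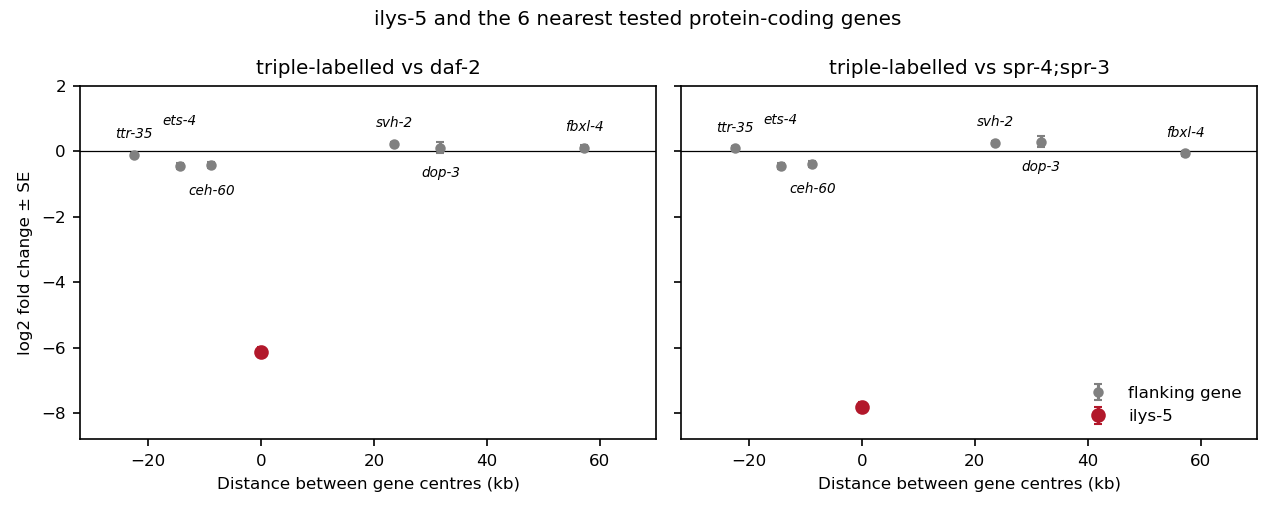
Fitted log2 fold change with SE (y axis) for ilys-5 and the 3 nearest tested protein-coding genes on each side, against the distance between gene centres in kb (x axis), for the triple-labelled libraries against daf-2 (left) and against the spr double mutant (right). ilys-5 sits at -6.14 and -7.82, and the 6 flanking genes lie between -0.45 and 0.30.

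By Pearson correlation of log2 CPM over the 12 libraries, the genes most like ilys-5 among 6521 named genes with a mean log2 CPM of at least 1 were pos-1 (r = 0.996), cht-3 (0.993), wdr-48 (0.989), dna-2 (0.989) and gfat-2 (0.984). pos-1 encodes a maternal RNA-binding protein of the early embryo and cht-3 a chitinase. They shared the order of the genotypes and not its size: pos-1 averaged 610 CPM in the triple-labelled libraries, 772 in daf-2, 832 for the spr double mutant and 854 in N2. cht-3 averaged 171, 271, 319 and 346 CPM in that order of genotypes. The libraries fall into genotypes, so these correlations describe group means more than the spread between libraries of a genotype. The 5 genes were picked as the highest of 6521, over libraries that include those by which ilys-5 was chosen.

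lys-4, lys-5 and lys-6 sit side by side on the minus strand of chromosome IV, from 11621429 to 11627947, with gaps of 1077 and 1327 bases. lys-4 had 51.1, 55.0 and 42.6 CPM in the triple-labelled libraries, 66.9, 57.5 and 77.0 CPM in daf-2, 111 to 129 CPM in the spr double mutant, and 152, 161 and 143 CPM in N2. No genotypes overlapped. lys-4 fell by 1.18 ± 0.12 in daf-2 relative to N2 (log2, edgeR adjusted p = 2.04e-05). Its fall of 0.34 ± 0.12 in the spr double mutant relative to N2 was close to the threshold (edgeR adjusted p = 0.0408, and 2.32e-12 to 0.129 over the alternatives). That call was lost without daf-2 replicate 1, triple-labelled replicate 1, N2 replicate 1 or 2, or spr double mutant replicate 1 or 2, at edgeR adjusted p from 0.0554 to 0.129.

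lys-5 was read rarely, with 0, 3 and 0 counts in the triple-labelled libraries, 3, 3 and 6 in daf-2, 33, 20 and 28 in the spr double mutant, and 67, 63 and 62 in N2. Its level was 0.0767 to 0.166 CPM in daf-2 and 1.33 to 1.90 CPM in N2. It fell by 3.84 ± 0.39 in daf-2 relative to N2, and by 0.94 ± 0.27 in the double mutant (log2, edgeR adjusted p = 2.91e-08 and 0.00666). lys-5 passed the filter only through the spr double mutant and N2, where it was high, so the first p-value is no independent support. Without spr double mutant replicate 2 the second call was lost (edgeR adjusted p = 0.0562, and 0.000359 to 0.0562 over the alternatives). From summed counts, the triple-labelled level was 0.225 times that of daf-2 (95% exact counting interval 0.0408 to 0.835) and 0.0297 times that of the spr double mutant (0.00599 to 0.0898). These intervals cover counting error only and stand for no test. All 3 triple-labelled counts came from replicate 2, and without it the group held 0.

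lys-6 had 0.815, 0.639 and 0.562 CPM in the triple-labelled libraries, 1.43, 0.732 and 1.08 CPM in daf-2, 5.19, 4.49 and 5.23 CPM in the spr double mutant, and 5.40, 5.66 and 5.54 CPM in N2. The triple-labelled and daf-2 libraries overlapped, and both lay below the spr double mutant and N2. lys-6 fell by 2.34 ± 0.16 in daf-2 relative to N2 (log2, edgeR adjusted p = 1.06e-10). In the spr double mutant its log2 fold change was -0.16 ± 0.13 relative to N2 and did not pass (edgeR adjusted p = 0.36).

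ilys-3 and ilys-2 lie on chromosome IV at 2464456 to 2465443 and 2467678 to 2468879. ilys-3, which acts in the pharynx and intestine in the breakdown of bacteria, had 24, 34 and 87 counts in the triple-labelled libraries, 51, 47 and 57 in daf-2, 5, 5 and 6 in the spr double mutant, and 1, 1 and 2 in N2. Its levels were 0.559 to 2.12 CPM in the triple-labelled libraries and 1.30 to 1.57 CPM in daf-2, which overlapped, against 0.0198 to 0.0538 CPM in N2. ilys-3 rose in daf-2 relative to N2 (edgeR adjusted p = 2.19e-06), and the ratio of summed counts was 42.7 (95% exact counting interval 16.4 to 159). Since ilys-3 passed the filter only through the groups where it was high, that p-value is no independent support for the rise. In the spr double mutant it stood 4.97 times above N2 from 16 and 4 summed counts (1.60 to 20.4), and this difference did not pass (edgeR adjusted p = 0.0901, and 0.00774 to 0.251 over the alternatives). It passed without a filter on low counts (edgeR adjusted p = 0.0078), by DESeq2 (adjusted p = 0.0263), and without triple-labelled replicate 1 or 3 (edgeR adjusted p = 0.0248 and 0.00774).

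ilys-2 was low in every library, at 0.303, 0.293 and 0.733 CPM in the triple-labelled libraries, 0.460, 0.351 and 0.552 CPM in daf-2, 0.0675, 0.117 and 0.239 CPM in the spr double mutant, and 0.159, 0.301 and 0.269 CPM in N2. All daf-2 libraries lay above all N2 libraries, with a log2 fold change of 0.95 ± 0.42 that did not pass (edgeR adjusted p = 0.0623, and 0.0285 to 0.255 over the alternatives). It passed without a filter (edgeR adjusted p = 0.0418), in the fit of daf-2 and N2 alone (0.0285) and without triple-labelled replicate 3 (0.0357). As with ilys-3, ilys-2 passed the filter only through the groups where it was high, so the p-values after that filter are no independent support. The spr double mutant and N2 overlapped (log2 fold change -0.69 ± 0.56, edgeR adjusted p = 0.326).

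Across the genes, daf-2 relative to N2 had 5 of the 10 lysozyme genes higher and 4 lower past the threshold, where 54.3% of all tested genes passed, 27.4% higher and 26.9% lower. Among these calls are ilys-3 and lys-5, which passed the filter only through groups where each was high. ilys-5, whose values chose the set, is among them too, so the counts are given as description. Groups without overlap counted 6 higher and 4 lower, against 59.3% of all tested genes, 29.8% higher and 29.6% lower. Their median log2 fold change was 0.91, and that of all tested genes was -0.0015. The spr double mutant relative to N2 had 4 higher and 3 lower, ilys-5 again among the lower, where 46.5% of all tested genes passed, 24.6% higher and 21.9% lower. Without overlap were 5 higher and 4 lower, against 57.5% of all tested genes, 30.2% higher and 27.3% lower. The medians were 0.21 for the lysozyme genes and 0.018 for all tested genes. Under total-count scaling, 35% of all calls in the spr comparison were higher, against 53% with the scaling used here.

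In the triple-labelled libraries relative to the spr double mutant, 6 lysozyme genes lay wholly above and 4 wholly below, where 58.9% of all tested genes had groups without overlap, 29.9% higher and 28.9% lower. Each gene had the direction it had between daf-2 and N2. The log2 differences of lys-2 and lys-7 were 1.77 and 2.55 between daf-2 and N2, and 0.73 ± 0.081 and 1.74 ± 0.14 between the triple-labelled and spr double mutant libraries. Relative to daf-2, 3 genes lay wholly above (lys-1, lys-7 and lys-8), 2 wholly below (ilys-5 and lys-4) and 5 overlapped, where 52.7% of all tested genes had no overlap, 29.2% higher and 23.5% lower. The log2 differences of lys-1 and lys-8 there were 0.37 ± 0.049 and 0.44 ± 0.071, and that of lys-4 was -0.44 ± 0.12. The choice of the genes used these libraries, and nothing is read from the counts.

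**Figure D3:**
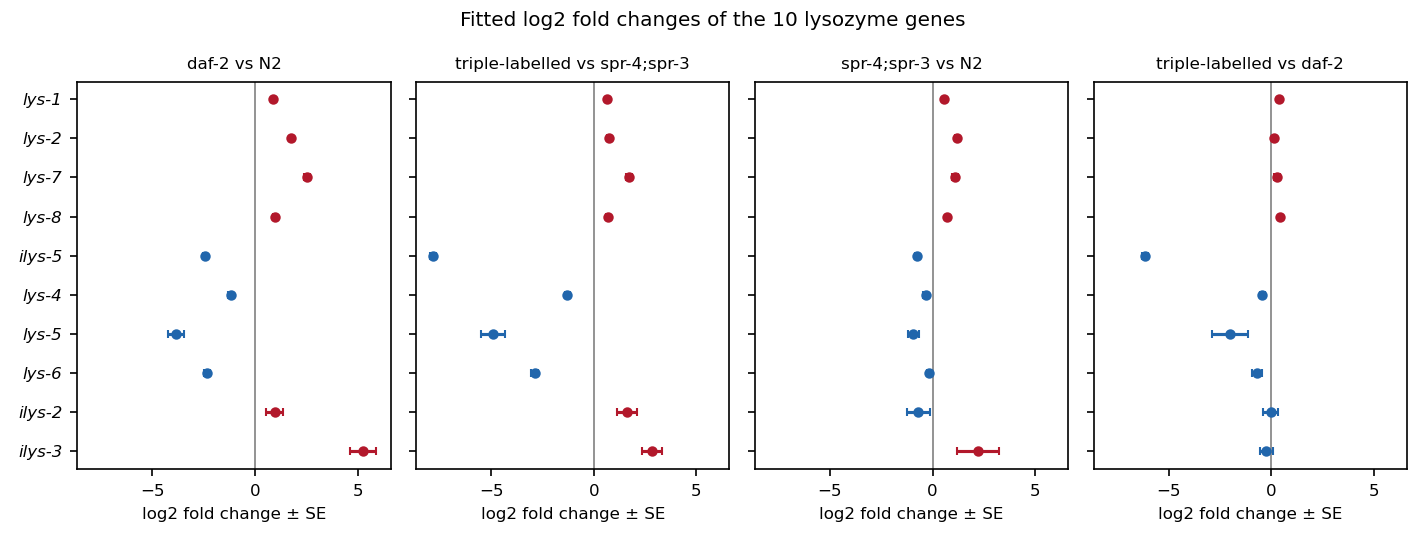
Fitted log2 fold changes with SE (x axis) of the 10 lysozyme genes (rows) in 4 comparisons; red marks values above 0 and blue values below 0. The panels with triple-labelled libraries are descriptions, and ilys-5 lies at -2.42 in daf-2 relative to N2 and at -7.82 in the triple-labelled libraries relative to the spr double mutant.

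Set against each other per exon length, the genes made up different shares of lysozyme transcript in each genotype. ilys-5 held 0.0442% ± 0.0124 of the summed RPKM of the 10 genes in the triple-labelled libraries, 3.65% ± 0.591 in daf-2, 15.5% ± 1.85 for the spr double mutant and 32.8% ± 1.90 in N2 (SD, n = 3 each). It was the most abundant of the 10 in N2, at 517 RPKM. lys-7 held 36.0% ± 3.52 in the triple-labelled libraries, 34.5% ± 1.05 in daf-2, 16.7% ± 2.55 for the spr double mutant, and 9.85% to 10.2% over the N2 libraries. The share of lys-4 was 2.02% in the triple-labelled libraries, 3.23% in daf-2, 7.68% for the spr double mutant and 12.3% in N2. The share of lys-1 stayed between 20.8% and 26.4% over the 12 libraries. The summed level of the 10 genes was 3113 ± 96.4 RPKM in the triple-labelled libraries, 2659 ± 192 in daf-2, 1998 ± 94.2 for the spr double mutant and 1575 ± 24.2 in N2.

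**Figure D4:**
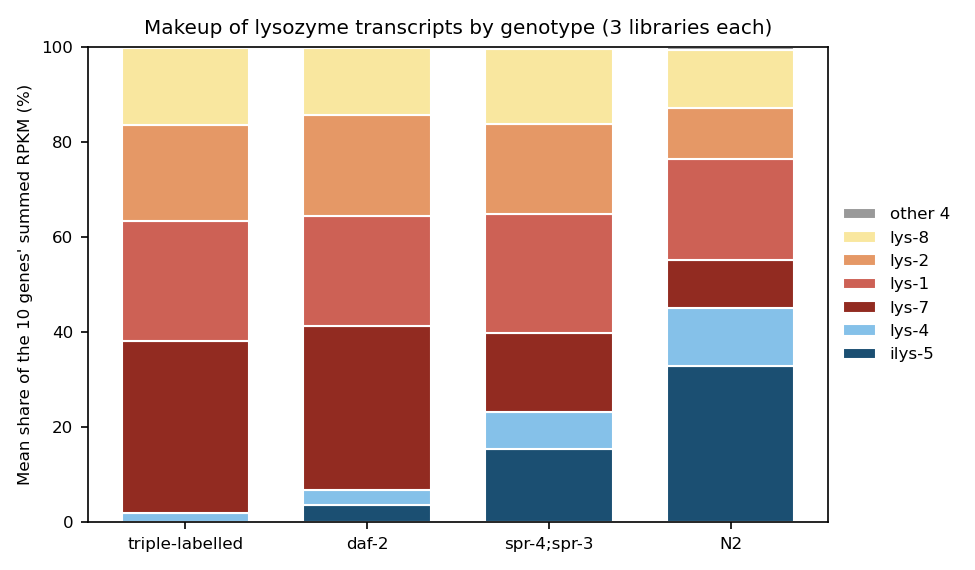
Mean share of each gene in the summed RPKM of the 10 lysozyme genes (y axis, percent) in each genotype, 3 libraries each, as stacked bars from 0 to 100. ilys-5 (dark blue) holds 0.0442% in the triple-labelled libraries and 32.8% in N2, and lys-7 (dark red) 36.0% in the triple-labelled libraries and 16.7% in the spr double mutant.

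Of the 6 lysozyme genes not listed, lys-9 had 1, 0 and 0 counts in the triple-labelled and in the daf-2 libraries and 0 elsewhere, ilys-1 had 0 or 1 count per library, and neither was tested. lys-3, next to lys-2 on chromosome V, averaged 20.6 ± 0.318 CPM in the triple-labelled libraries, 9.77 ± 1.49 in daf-2, 9.84 ± 2.15 for the spr double mutant and 5.08 ± 1.40 in N2 (SD, n = 3 each). It rose in each of the 4 comparisons, by 0.95 in daf-2 and by 0.97 in the spr double mutant relative to N2, and by 1.07 in the triple-labelled libraries relative to daf-2 (log2, edgeR adjusted p = 0.00143, 0.00196 and 0.000397). In the triple-labelled libraries relative to the spr double mutant it rose by 1.06 (log2, edgeR adjusted p = 0.000362). Of the 4 tested unlisted genes, 3 were higher and 1 lower in that comparison, where 49.3% of all tested genes passed, 25.8% higher and 23.5% lower. The number lower was 0 without triple-labelled replicate 1 or spr double mutant replicate 3. It was also 0 with the filter of 1 CPM in 6 libraries and in the fit of only the groups compared. The 4 include ilys-6 and lys-10, which passed the filter only through groups where each was high. ilys-4 rose by 0.36 in daf-2 relative to N2 (edgeR adjusted p = 0.00446), and it lies inside atic-1 on the other strand, whose reads cannot be told apart without strand.

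lys-10 averaged 0.175 ± 0.0269 CPM in daf-2 and 0.486 ± 0.0309 CPM in N2, a fall of 1.47 (log2, edgeR adjusted p = 0.00242). These levels rest on 6, 7 and 6 counts in daf-2 and 25, 15 and 19 in N2. lys-10 passed the filter only through N2, where it was high, so that p-value is no independent support. Its value in the spr double mutant relative to N2, -0.71, did not pass (edgeR adjusted p = 0.105), and it passed without spr double mutant replicate 3 (edgeR adjusted p = 0.0325). ilys-6 had 22, 12 and 28 counts in the triple-labelled libraries, 14, 13 and 12 in daf-2, 1, 2 and 1 in the spr double mutant, and 0 in all 3 N2 libraries. Set against an assumed floor of 3 counts over the N2 group, it was 14.3-fold higher in daf-2 (edgeR adjusted p = 3.51e-06). The 95% exact counting interval of the ratio to the N2 counts had a lower limit of 11.1. ilys-6 passed the filter only through the triple-labelled and daf-2 libraries, where it was high, so that p-value is no independent support. In the spr double mutant 4 counts stood against 0 (edgeR adjusted p = 0.0429), a call lost when any 1 library of the spr double mutant or N2, daf-2 replicate 2 or 3, or triple-labelled replicate 1 was left out, at edgeR adjusted p from 0.0502 to 0.117. It was also lost without a filter on low counts (edgeR adjusted p = 0.0618) and by DESeq2 (adjusted p = 0.0689).

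Genes of immune signalling, known to act upstream of such effectors, were counted next. Of 30 such genes, which include the p38 kinase pathway, its transcription factors and the DBL-1 pathway, 14 rose and 2 fell in daf-2 relative to N2, where 27.4% of all tested genes were higher and 26.9% lower. The median log2 fold change was 0.11, and -0.0015 over all tested genes. The number that fell was 4 under total-count scaling, 0 without daf-2 replicate 1, and 1 without daf-2 replicate 2, spr double mutant replicate 2 or any N2 replicate. pqm-1, a zinc-finger factor active opposite to DAF-16, rose by 0.93, the phosphatase gene vhp-1 by 0.71, cebp-1 by 0.66 and the adaptor gene tir-1 by 0.63 (edgeR adjusted p = 2.16e-08, 4.28e-06, 1.61e-07 and 5.27e-08). In the spr double mutant relative to N2, 13 rose and 3 fell (6 fell under total-count scaling), where 24.6% of all tested genes were higher and 21.9% lower. The median was 0.086, and 0.018 over all tested genes. The largest were the kinase genes pmk-3 (0.85) and pmk-2 (0.78), tir-1 (0.64) and zip-2 (0.57; edgeR adjusted p = 4.42e-09, 9.87e-06, 1.08e-07 and 4.42e-09). In the triple-labelled libraries, 13 were higher and 2 lower than in daf-2, where 47% of all tested genes passed, 26.1% higher and 20.9% lower, and 8 higher and 4 lower without daf-2 replicate 1, or 1 lower without daf-2 replicate 3 or triple-labelled replicate 3.

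Markers of the intestine, where many lysozyme genes are active, were counted in the same way. Of 12 intestine markers, 3 rose and 8 fell in daf-2 relative to N2, where 27.4% of all tested genes were higher and 26.9% lower. The peptide transporter gene pept-1 fell by 2.17, the acid phosphatase gene pho-1 by 1.59 and the protease gene asp-1 by 1.09, while the esterase gene ges-1 rose by 1.24 (edgeR adjusted p = 2.15e-08, 1.32e-09, 2.56e-12 and 1.22e-12). In the spr double mutant relative to N2, 2 rose and 5 fell, where 46.5% of all tested genes passed, 24.6% higher and 21.9% lower. Of these markers 3 fell without N2 replicate 1 or spr double mutant replicate 3, 1 rose without replicate 1 or 2 of either group, and 1 rose and 8 fell under total-count scaling. The largest changes were falls of pept-1, by 1.42, and pho-1, by 0.91, a rise of elt-7, by 0.35, and a fall of ifb-2, by 0.31 (edgeR adjusted p = 1.66e-06, 2.6e-06, 0.0168 and 0.000208). The elt-7 call was lost without N2 replicate 1 or spr double mutant replicate 1 or 2, and under total-count scaling (edgeR adjusted p from 0.0574 to 0.138). The summed level of the 12 markers ran from 2322 to 2557 CPM in the triple-labelled libraries, 1796 to 1999 CPM in daf-2, 2913 to 2995 CPM for the spr double mutant and 3075 to 3211 CPM in N2. No marker was at 0 in any group. Most of that sum was asp-1, with 1389 to 1499 CPM in the triple-labelled libraries, 777 to 966 in daf-2, 1812 to 1841 for the spr double mutant and 1839 to 1905 in N2. The other 11 markers summed to 926 to 1058 CPM in the triple-labelled libraries and 1005 to 1033 CPM in daf-2, which overlapped, to 1099 to 1154 CPM for the spr double mutant and to 1236 to 1306 CPM in N2. Summed intestine markers, with or without asp-1, thus stood lower in daf-2 than in N2, as ilys-5 and lys-4 did and unlike lys-7, and the part of tissue makeup in the lysozyme values was not tested.

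Pharynx muscle markers summed to 65.9 to 74.3 CPM in the triple-labelled libraries, 58.3 to 64.1 in daf-2, 77.1 to 85.7 for the spr double mutant and 131 to 142 in N2, with 5 of 5 lower in daf-2 (26.9% of all tested genes) and 4 of 5 lower in the spr double mutant (21.9%) relative to N2. Of 4 tested pharynx gland markers, 1 rose and 3 fell in daf-2 relative to N2 (27.4% and 26.9% of all tested genes), while 2 fell in the double mutant (21.9%). The 2 that fell in the double mutant include phat-5, which passed the filter only through groups where it was higher. The 1 that rose was lost without daf-2 replicate 1 or 2 or any N2 replicate, with RLE factors, total-count scaling or DESeq2, and with the filter of 1 CPM in 6 libraries. Of the 2 coelomocyte markers, cells in which ilys-3 is also known to act, 1 rose in daf-2 relative to N2 (27.4% of all tested genes) and 2 rose in the double mutant (24.6%). The first became 0 without daf-2 replicate 2 or N2 replicate 1 and under total-count scaling, and the second 1 without N2 replicate 1.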

How the data were processed

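RNA from whole worms (500 ng per library, stranded mRNA kit, 75 bp read pairs, per the labels' protocols) gave 12 libraries. Per the submitters' processing notes, STAR and featureCounts 1.5.1 were used with genome build WBcel235. No version of STAR, strand setting or rule for multiply matching reads is stated. The authors deposited whole-number gene counts without normalization. Rows without a gene name numbered 0, and 0 columns were left unused. Gene names matched 43720 identifiers, and positions and exon lengths came from an annotation of WBcel235, release 115.

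The analysis used edgeR 4.0.16 under R 4.3.3: filterByExpr (minimum count 10), TMM scaling, and 1 robust quasi-likelihood model of all 12 libraries (8 residual degrees of freedom), two-sided, with Benjamini-Hochberg adjustment over 15764 genes and a threshold of 0.05. SE is the absolute log2 fold change over the square root of F. The model was tested on simulated data. The spread of replicates exceeded counting noise, with chi-square over its degrees of freedom at 3.61 to 18.0. Alternatives were DESeq2 1.42.0, RLE factors, total-count scaling, a filter of 1 CPM in 6 libraries, none at all, a replicate block, fits of only the groups compared, and leaving out each library. The genes, the 6 context lists and the tests were chosen with earlier results of these data known. Named genes were the 10 listed and 6 other lysozyme genes, the label checks, the 3 nearest tested protein-coding genes on each side of ilys-5, the 5 most correlated with it, and up to 4 called members per list and comparison with N2. The other lysozyme genes, immune signalling, intestine, pharynx muscle, pharynx gland and coelomocyte lists were counted. No sequence was used. Figures were drawn with matplotlib 3.10.9.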

Additional observations from a re-analysis of the deposited data

Results flagged for a closer look

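The spr effect with the daf-2 label minus the spr effect without it was tested with edgeR's interaction term for 65 genes named or listed beside the 10 lysozyme genes: the unlisted lysozyme genes, the list genes, the label checks and the neighbours of ilys-5. Of these, 19 passed, or 29.2%, against 28.7% of all tested genes, so the share is near the background. The genes most correlated with ilys-5 were chosen on these libraries and were left out, as were the 10 lysozyme genes.

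Among pharynx markers the log2 interaction was positive for phat-5 (3.88, adjusted p = 1.96e-05), phat-4 (1.98, adjusted p = 0.000222), tnt-4 (1.36, adjusted p = 2.63e-06), tnc-2 (0.981, adjusted p = 1.75e-05), myo-2 (0.854, adjusted p = 6.75e-07) and myo-1 (0.831, adjusted p = 7.71e-07). phat-5 averaged 0.0833 ± 0.0477 CPM (SD) for the spr double mutant, below the filter cutoff of 0.278 CPM. It passed that filter only through groups where it was higher, so its p-value is no independent support. phat-4 was also low, at 0.454 ± 0.0668 CPM in daf-2. Among intestine markers the log2 interaction was positive for pho-1 (1.33, adjusted p = 9.02e-06), pept-1 (0.819, adjusted p = 0.00522), asp-1 (0.734, adjusted p = 1.72e-06) and ifb-2 (0.579, adjusted p = 3.88e-05), and negative for ges-1 (-0.288, adjusted p = 0.024). Among immune signalling genes it was positive for kgb-1 (0.30, adjusted p = 0.0225) and fshr-1 (0.243, adjusted p = 0.0408), and negative for pmk-2 (-0.625, adjusted p = 0.00618), pmk-3 (-0.462, adjusted p = 0.00127), zip-2 (-0.361, adjusted p = 0.000352) and tir-1 (-0.273, adjusted p = 0.0274). It was 0.81 for spr-3 (adjusted p = 2.7e-05) and -0.437 for ttr-35, a neighbour of ilys-5 (adjusted p = 0.00406). The spr-3 value restates the label check, where spr-3 was lower for the double mutant and not in the triple-labelled libraries. Groups of 3 libraries are too small to test for single libraries that stand apart.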

How the results depend on the processing

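Over the 18 or 19 alternatives that gave a value, the calls of ilys-5, lys-1, lys-2, lys-7 and lys-8 in both comparisons with N2, and of lys-4, lys-5, lys-6 and ilys-3 in daf-2 relative to N2, kept direction and threshold. For ilys-5, lys-5 and ilys-3 this adds no independent support, given how the set was chosen and the filter was passed. No called lysozyme value changed sign. The small differences of ilys-2 and ilys-3, triple-labelled minus daf-2 (-0.04 and -0.24), did change sign, ilys-2 to 0.11 without daf-2 replicate 3, and to 0.18 and 0.17 without triple-labelled replicates 1 and 2, and ilys-3 to 0.10 without triple-labelled replicate 1. The median log2 difference of the 10 genes, triple-labelled minus daf-2, was -0.14, and -0.459 to 0.0841 with 1 library left out (above 0 without triple-labelled replicate 1 or 2), so it has no stable sign. With at least 1 CPM in 6 libraries, some low genes gave no value. The replicate numbers pair nothing in the labels (median residual correlation 0.00033 over 18 pairs, 2 of 12 libraries most like their own number). The replicate block gave 8383 calls in daf-2 and 7092 in the spr double mutant relative to N2, against 8560 and 7324, and 7199 and 7592 in the triple-labelled libraries relative to daf-2 and to the spr double mutant, against 7410 and 7777. With it, ilys-2 in daf-2 (edgeR adjusted p = 0.0397) and ilys-3 in the spr double mutant (0.0288) passed, and lys-4 (0.0787) and ilys-6 (0.0515) in the spr double mutant did not. Depth limits lys-5, lys-10, ilys-2, ilys-3 and ilys-6, with under 100 counts in each library.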
